A study of Mus musculus with 18 samples.

Results

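The genes described here copy DNA and divide the cell. The list held 49 genes of DNA replication and mitosis, and 48 of them could be measured among 19912 genes on Affymetrix mouse Gene 1.0 ST arrays. Where several probe sets named a gene alone, the brightest of them by its mean across the 18 arrays was read. Ccnb1, which encodes cyclin B1, was not measured because its probe set names several genes. The 48 measured genes were 15 replication genes, 30 mitotic genes and 3 regulators of entry into S phase (E2f1, Ccne1 and Ccne2).

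The study followed cardiac fibroblasts through conversion into cardiomyocyte-like cells, with 3 arrays in each of 6 groups, all from CD1 mice. CM were neonatal mouse cardiomyocytes and CF were neonatal cardiac fibroblasts. GFP+ iCMs were induced cardiomyocyte-like cells that carried the reporter signal, taken at 2 and at 4 weeks. GFP- cells were those in which reprogramming had failed, taken at the same 2 times. The labels name neither the factors given to the cells nor the promoter that drives GFP. No age is given beyond neonatal. The arrays of a group are described as biological replicates, but nothing says whether they came from separate cultures or litters, so each p-value measures the spread between these arrays.

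Before a cell divides, the 6 subunits Mcm2 to Mcm7 are loaded as a ring onto replication origins and are later activated by Cdc45 and the GINS complex. Replication genes are largely switched on at the start of S phase through E2F factors. Mitotic genes come later, in G2 and mitosis, and many of their promoters are known for a CHR element read by the DREAM and MuvB complexes together with FoxM1 or B-Myb, often beside CCAAT boxes. Neonatal cardiomyocytes still divide for a short time after birth, and heart muscle cells then largely leave the cell cycle.

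Printed here are 9 promoter windows, to show where the letters of E2F, CHR and CCAAT elements stood in genes of both classes. RefSeq windows on GRCm38.p6, running from 250 bases before to 50 bases after the gene start, were found for 40 of the 49 genes. An E2F-like match was any of TTTCCCGC, TTTGGCGC, TTTCGCGC or TTTGCCGC, a CHR-like match was TTTGAA, and a CCAAT match was CCAAT, each searched on both strands. Capitals mark these matches, so that ATTGG is CCAAT and TTCAAA is TTTGAA read on the opposite strand, and the reverse of an E2F-like match ends in AAA. Rrm2, Mcm6 and Prim1 are the replication genes, and Bub1, Mki67 and Top2a the mitotic genes, with the widest range of group means among those whose window held a match.
Rrm2, chr12:24708004-24708303, + strand: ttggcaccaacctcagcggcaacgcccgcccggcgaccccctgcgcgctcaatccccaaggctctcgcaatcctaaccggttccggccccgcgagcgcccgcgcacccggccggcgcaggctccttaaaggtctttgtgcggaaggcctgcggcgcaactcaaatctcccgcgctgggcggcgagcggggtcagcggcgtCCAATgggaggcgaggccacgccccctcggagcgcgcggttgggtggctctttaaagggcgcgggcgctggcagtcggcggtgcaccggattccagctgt
Mcm6, chr1:128359656-128359955, - strand: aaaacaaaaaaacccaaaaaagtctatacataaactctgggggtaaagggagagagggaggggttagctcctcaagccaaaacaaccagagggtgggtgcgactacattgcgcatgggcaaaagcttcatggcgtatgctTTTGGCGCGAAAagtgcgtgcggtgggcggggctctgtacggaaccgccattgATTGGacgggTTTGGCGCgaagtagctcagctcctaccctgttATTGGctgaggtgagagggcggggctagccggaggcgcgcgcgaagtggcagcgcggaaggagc
Prim1, chr10:128014965-128015264, + strand: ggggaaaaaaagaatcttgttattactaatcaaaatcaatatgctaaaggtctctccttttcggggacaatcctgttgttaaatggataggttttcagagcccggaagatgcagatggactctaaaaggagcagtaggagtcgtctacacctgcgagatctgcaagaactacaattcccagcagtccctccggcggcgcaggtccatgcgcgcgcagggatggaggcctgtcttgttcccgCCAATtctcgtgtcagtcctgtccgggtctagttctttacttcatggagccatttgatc
Bub1, chr2:127831810-127832109, - strand: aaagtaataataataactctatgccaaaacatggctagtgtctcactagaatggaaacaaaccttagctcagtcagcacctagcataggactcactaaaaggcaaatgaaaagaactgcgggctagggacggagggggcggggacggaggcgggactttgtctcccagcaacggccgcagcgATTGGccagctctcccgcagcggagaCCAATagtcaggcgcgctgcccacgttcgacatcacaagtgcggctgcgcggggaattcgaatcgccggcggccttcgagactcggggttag
Mki67, chr7:135716330-135716629, - strand: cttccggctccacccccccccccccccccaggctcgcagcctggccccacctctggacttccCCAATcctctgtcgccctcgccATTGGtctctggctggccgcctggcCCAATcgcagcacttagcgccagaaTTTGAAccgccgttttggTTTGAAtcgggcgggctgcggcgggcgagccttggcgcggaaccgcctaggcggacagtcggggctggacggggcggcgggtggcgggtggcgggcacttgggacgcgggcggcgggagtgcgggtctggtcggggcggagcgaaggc
Top2a, chr11:99024140-99024439, - strand: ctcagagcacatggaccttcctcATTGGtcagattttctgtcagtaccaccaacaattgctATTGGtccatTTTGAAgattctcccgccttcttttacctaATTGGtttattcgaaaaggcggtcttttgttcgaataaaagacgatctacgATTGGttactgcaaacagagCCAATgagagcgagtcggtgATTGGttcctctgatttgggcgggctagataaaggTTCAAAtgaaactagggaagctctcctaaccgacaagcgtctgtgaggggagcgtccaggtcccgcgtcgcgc
A further 3 windows were picked after the matches and values had been seen: Mcm5 for its E2F-like letters, Cdk1 as the single mitotic gene with E2F-like letters, and Cenpa as the gene that went against the others.
Mcm5, chr8:75109259-75109558, + strand: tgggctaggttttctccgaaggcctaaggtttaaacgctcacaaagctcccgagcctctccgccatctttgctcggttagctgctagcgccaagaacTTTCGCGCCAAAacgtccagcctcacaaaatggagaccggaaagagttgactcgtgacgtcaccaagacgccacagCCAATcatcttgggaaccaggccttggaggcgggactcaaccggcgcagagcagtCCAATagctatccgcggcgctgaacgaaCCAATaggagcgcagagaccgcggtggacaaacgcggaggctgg
Cdk1, chr10:69352863-69353162, - strand: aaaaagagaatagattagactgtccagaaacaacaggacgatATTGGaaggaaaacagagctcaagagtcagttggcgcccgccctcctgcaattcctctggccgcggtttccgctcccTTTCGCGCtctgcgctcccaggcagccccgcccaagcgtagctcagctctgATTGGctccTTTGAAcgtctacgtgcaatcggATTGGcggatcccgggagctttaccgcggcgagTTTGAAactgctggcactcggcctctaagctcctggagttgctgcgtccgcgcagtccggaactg
Cenpa, chr5:30666636-30666935, + strand: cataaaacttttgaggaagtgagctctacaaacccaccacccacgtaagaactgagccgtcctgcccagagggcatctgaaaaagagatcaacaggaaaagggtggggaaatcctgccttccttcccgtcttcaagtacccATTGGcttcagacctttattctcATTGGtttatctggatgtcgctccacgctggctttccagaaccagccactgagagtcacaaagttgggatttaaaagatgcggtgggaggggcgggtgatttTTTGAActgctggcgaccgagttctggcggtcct
In the Mcm6 window 3 E2F-like matches were found, a pair of them overlapping on opposite strands. Mki67 held CHR-like letters at -116 and -98 from its start, both downstream of 3 CCAAT matches. In the Cenpa window the CHR-like letters lay 17 bases after the start, with CCAAT matches upstream, the same kinds of match as in most mitotic windows.

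Over the 40 windows found, E2F-like and CHR-like letters had different shares in the classes. E2F-like letters were in 5 of 12 replication windows (41.7%) and in 1 of 26 mitotic windows (3.85%), against 2.32% of 27025 promoters of the same length. CHR-like letters were in 19 of 26 mitotic windows (73.1%) and in 2 of 12 replication windows (16.7%), against 18.1% of all promoters. CCAAT was common in both classes, in 10 of 12 replication windows (83.3%) and 19 of 26 mitotic windows (73.1%), against 37.9% overall. CHR-like and CCAAT letters stood together in 16 of 26 mitotic windows (61.5%) and in 7.12% of all promoters. Both windows found for the S-phase entry regulators lacked the exact E2F-like letters searched. Other forms of the E2F element were not searched. Only the first window listed for a gene was read, and 3 of the genes had 2 windows. A match describes letters in a window and is not a bound site.

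The genes were highest in GFP- cells at 2 weeks and lowest in GFP+ cells at 4 weeks. GFP- cells at 2 weeks had the highest group mean for 37 of 48 genes, and CM for 9. GFP+ cells at 4 weeks had the lowest for 45 of 48. Against CF, a gene was called where its adjusted p was under 0.05 (limma, Benjamini-Hochberg over 19912 genes). In GFP+ cells at 2 weeks 42 of 48 were lower than in CF and 1 was higher, where 15.8% of all genes were lower and 17.4% higher. At 4 weeks 46 were lower and 1 higher, against 15.2% and 14.3% of all genes. Every gene lower at 2 weeks was also lower at 4 weeks, 42 in all, and the median difference of the 48 went from -0.96 to -1.27 on the log2 scale. Over all genes the median differences stayed between -0.059 and 0.051 in the 12 comparisons made. The comparisons against CF share the same 3 CF arrays.

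GFP- cells lay above CF at 2 weeks and mostly below it at 4 weeks. At 2 weeks 39 of 48 genes were higher than in CF and none was lower, with a median difference of 0.61, while 13.8% of all genes were higher and 8.93% lower. At 4 weeks none was higher and 34 were lower, with a median of -0.48, against 5.79% and 5.7% of all genes. The same 28 genes were above CF at 2 weeks and below it at 4 weeks. The count at 4 weeks depended on single arrays. It was 16 without GFP- replicate 2 at 4 weeks and also 16 without CF replicate 3. In each such fit p was adjusted anew over all genes, and the share of all genes called is not given here.

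**Figure D1:**
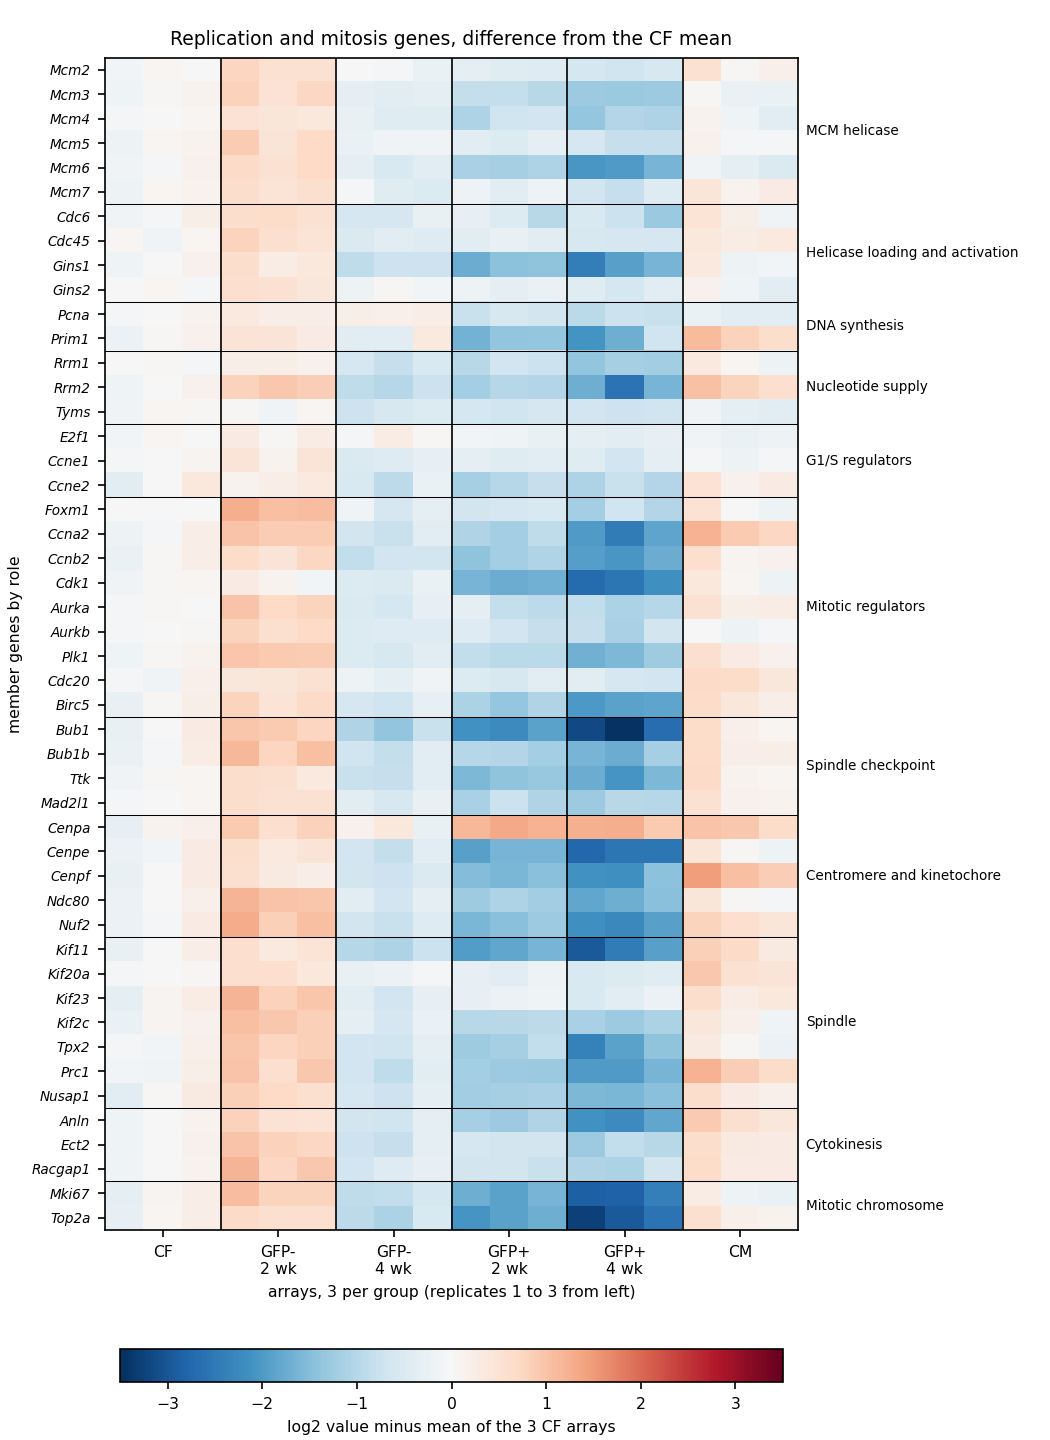
Difference of each array from the mean of the 3 CF arrays (log2, colour) for the 48 genes in rows, grouped by role, and 18 arrays in columns. The GFP- columns at 2 weeks are red and the GFP+ columns are blue nearly throughout, deepest at 4 weeks, while the Cenpa row is red in GFP+ cells.

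Set side by side at the same time, GFP+ cells were far below GFP- cells. At 2 weeks 47 of 48 genes were lower and 1 was higher, with a median of -1.75, where 18.4% of all genes were lower and 16.2% higher. At 4 weeks 41 were lower and 1 higher, with a median of -0.91, against 17.1% and 17.2% of all genes. The 6 genes that did not pass at 4 weeks were Ccne1, Ccne2, Cdc45, Cdc6, Kif23 and Tyms. On arrays of bulk RNA, fewer cycling cells and less of each transcript per cycling cell cannot be told apart.

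The labels were compared with marker genes. The 8 cardiomyocyte markers averaged 13.12 to 13.19 on the CM arrays, 11.20 to 11.29 in GFP+ cells at 4 weeks, 10.48 to 10.86 at 2 weeks, 8.06 to 8.37 in GFP- cells and 7.37 to 7.48 in CF. In GFP+ cells 7 of the 8 were higher than in CF at both times, while Myl2, a ventricular myosin light chain, was lower by -0.55 and -0.32. In GFP- cells 4 of the 8 were higher at 2 weeks, led by Nppa, the gene of atrial natriuretic peptide, at 2.31. The 9 fibroblast markers were highest in CF, at 10.25 to 10.61, and ran from 8.57 to 9.16 in GFP- cells. They averaged 8.86 to 9.08 and then 8.50 to 8.57 in GFP+ cells, and 9.48 to 9.78 in CM. Against CF 8 of the 9 were lower in GFP+ cells at both times, while Thy1 was higher by 2.07 and 1.10. In GFP- cells at 4 weeks and in CM 7 were lower, while Lum was higher by 1.25 and 1.30. Macrophage markers were also high in CF: 10 of them averaged 11.70 to 11.90 in CF and 11.91 to 12.09 in GFP- cells. They were at 9.58 to 9.90 and then 9.06 to 9.26 in GFP+ cells, and all 10 were lower than in CF at both times. In CM they averaged 6.46 to 6.69, with 3 of the 10 near background. CM had 18 of the 48 genes above CF and 3 below it, where 19.6% of all genes were higher and 21.5% lower. The part of macrophage RNA in the differences of CM from CF, or of GFP+ cells from CF and GFP- cells, was not tested. From 2 to 4 weeks in GFP- cells 7 of the 10 macrophage markers were not called and 3 were lower, while 4 of 6 endothelial markers were higher, at 7.78 to 7.94 and then 8.61 to 9.01. In CM all 6 endothelial markers were higher than in CF, at 8.89 to 9.10 against 6.55 to 6.70. The 4 mesothelial markers averaged 8.36 to 8.80 in CF, 10.46 to 11.05 in GFP+ cells at 2 weeks and 10.04 to 10.34 at 4 weeks, with 4 and then 3 of them higher than in CF. The part of endothelial and mesothelial RNA was not tested either. Arrays of a group correlated at 0.99 to 0.996 across genes. In CM replicate 1 lay above the other two, with median differences from the CF means of 0.34 for replication and 0.62 for mitotic genes, against -0.04 and -0.13, and 0.25 and 0.20.

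Among replication genes, all 6 Mcm genes were higher in GFP- cells at 2 weeks than in CF, by 0.44 (Mcm4) to 0.68 (Mcm3). In GFP+ cells 5 of 6 were lower at 2 weeks and all 6 at 4 weeks, by -0.63 (Mcm2) to -1.89 (Mcm6). In GFP- cells at 4 weeks 2 of 6 were lower, where 5.7% of all genes were. In CM 1 was lower, where 21.5% of all genes were, with differences from -0.31 (Mcm6) to 0.28 (Mcm7, not called). Of all genes, 13.8% were higher in 2-week GFP- cells, and 15.8% and then 15.2% were lower in GFP+ cells. Mcm6 read 9.68, 9.77 and 9.96 in the CF arrays, 10.48, 10.32 and 10.50 in GFP- cells at 2 weeks, and 9.49, 9.26 and 9.41 at 4 weeks. In GFP+ cells it read 8.67, 8.63 and 8.73 at 2 weeks and 7.77, 7.83 and 8.16 at 4 weeks, and in CM 9.69, 9.49 and 9.29. All GFP+ arrays lay below every other array, and the GFP+ arrays at 4 weeks lay below those at 2 weeks. Mcm6 was lower than in CF by -1.13 ± 0.12 (SE, limma adjusted p = 1.53e-07) at 2 weeks and -1.89 ± 0.12 (adjusted p = 7.42e-11) at 4 weeks.

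For Mcm3 the CF arrays read 7.98, 8.16 and 8.26, and GFP- cells went from 8.94, 8.64 and 8.86 to 7.81, 7.74 and 7.82. GFP+ cells were at 7.29, 7.30 and 7.17 and then 6.86, 6.83 and 6.87, with CM at 8.16, 7.90 and 7.90. Only CM overlapped CF. At 4 weeks Mcm3 in GFP+ cells was -1.28 ± 0.10 from CF (SE, limma adjusted p = 1.73e-09).

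Of the genes that load and activate the helicase, Gins1, a GINS subunit, had the widest range. Gins1 read 8.26, 8.40 and 8.55 in CF, 9.02, 8.67 and 8.77 in GFP- cells at 2 weeks and 7.51, 7.67 and 7.68 at 4 weeks. It read 6.65, 6.96 and 6.98 in GFP+ cells at 2 weeks, 5.97, 6.51 and 6.77 at 4 weeks, and 8.74, 8.23 and 8.30 in CM. The GFP+ arrays of the 2 times overlapped, and both sets were below all others. Gins1 was -1.98 ± 0.17 from CF in GFP+ cells at 4 weeks (SE, limma adjusted p = 9.08e-09). Cdc6, Cdc45 and Gins2 were also lower at 4 weeks, the smallest difference being -0.47 for Gins2, so all 4 genes of this step were lower.

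DNA synthesis was represented by the primase subunit Prim1 and by Pcna, the sliding clamp. Prim1 read 8.30, 8.54 and 8.66 in CF, 8.97, 8.95 and 8.79 and then 8.14, 8.09 and 8.83 in GFP- cells, and 9.62, 9.30 and 9.11 in CM. GFP+ cells were at 6.84, 7.11 and 7.14 at 2 weeks and at 6.41, 6.79 and 7.80 at 4 weeks. Replicate 3 at 4 weeks lay above every GFP+ array at 2 weeks, while the other two lay below them. The difference from CF was -1.47 ± 0.25 at 2 weeks and -1.50 ± 0.25 at 4 weeks (SE, limma adjusted p = 9.06e-05 and 7.18e-05).

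Pcna had a flatter course. It read 12.29, 12.35 and 12.48 in CF, 12.72, 12.60 and 12.60 in GFP- cells at 2 weeks and 12.57, 12.55 and 12.59 at 4 weeks. GFP+ arrays gave 11.59, 11.80 and 11.74 and then 11.44, 11.63 and 11.59, and CM 12.13, 11.97 and 11.98. The 4-week GFP- arrays stayed above all CF arrays, whereas most other genes had dropped below them, although the difference of 0.20 ± 0.09 was not called (SE, limma adjusted p = 0.18). From 2 to 4 weeks Pcna differed by -0.07 ± 0.09 in GFP- cells, not called (adjusted p = 0.622). A second Pcna probe set gave group means within 0.01 of the first, and whether either reads a near-identical copy was not tested, so Pcna is given as uncertain.

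Nucleotide supply held the widest and the narrowest courses of the replication genes. Rrm2, the regulated subunit of ribonucleotide reductase, read 8.78, 8.91 and 9.06 in CF, 9.73, 9.86 and 9.77 in GFP- cells at 2 weeks and 8.02, 7.93 and 8.16 at 4 weeks. GFP+ cells gave 7.72, 7.92 and 7.90 and then 7.21, 6.33 and 7.30, and CM 9.94, 9.70 and 9.50. Rrm2 in CM overlapped the 2-week GFP- level and was above CF on every array. It was -1.97 ± 0.18 from CF in GFP+ cells at 4 weeks (SE, limma adjusted p = 2.08e-08).

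Tyms, which makes the thymidine nucleotide, read 8.88, 9.07 and 9.06 in CF and 9.04, 8.88 and 9.07 in GFP- cells at 2 weeks. It then read 8.28, 8.46 and 8.52 in GFP- cells at 4 weeks, beside 8.40, 8.30 and 8.42 and then 8.35, 8.28 and 8.32 in GFP+ cells. CM read 8.89, 8.67 and 8.65. At 4 weeks the GFP+ and GFP- arrays of Tyms overlapped, with a difference of -0.10 ± 0.09 (SE, limma adjusted p = 0.44), and Tyms was not called against CF in GFP- cells at 2 weeks, with -0.01 ± 0.09 (adjusted p = 0.943).

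The S-phase entry regulators had smaller differences. Cyclin E2, from Ccne2, read 7.63, 7.98 and 8.37 in CF, 8.12, 8.23 and 8.32 and then 7.45, 7.08 and 7.76 in GFP- cells, and 8.49, 8.15 and 8.28 in CM. It read 6.83, 6.98 and 7.18 in GFP+ cells at 2 weeks and 6.90, 7.20 and 6.97 at 4 weeks. GFP+ arrays at the 2 times overlapped, below all CF arrays. The difference from CF was -0.99 ± 0.17 at 2 weeks and -0.97 ± 0.17 at 4 weeks (SE, limma adjusted p = 9.43e-05 and 0.000125). E2f1, the transcription factor gene, spanned only 0.53 between its highest and lowest group mean, and was lower than in CF in GFP+ cells at 4 weeks by -0.34.

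**Figure D2:**
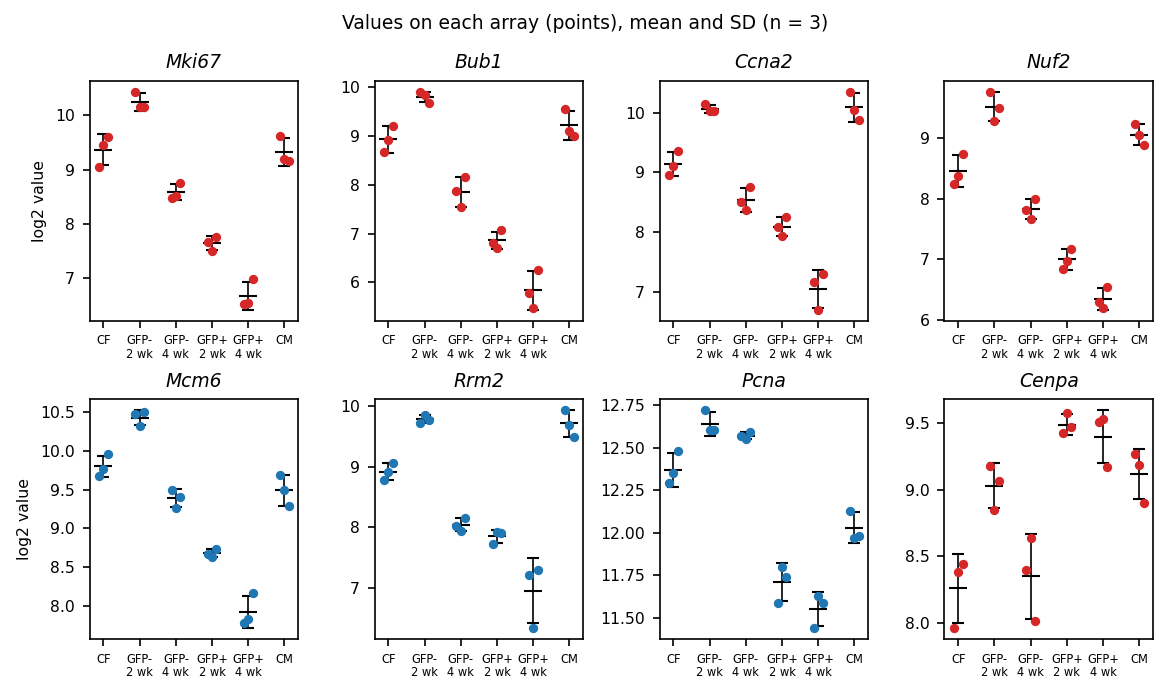
Log2 value on each array (points) with the mean and SD of the 3 arrays (bars) for 8 genes across the 6 groups, replication genes in blue and mitotic genes in red. Each panel has its own axis; 7 of the 8 are lowest in GFP+ cells at 4 weeks, and Cenpa is highest in GFP+ cells.

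Mitotic genes had larger differences from CF by their median. Of the 9 measured mitotic regulators all were lower than in CF in GFP+ cells at both times, by -0.47 (Cdc20) to -1.67 (Cdk1) at 2 weeks and by -0.55 (Cdc20) to -2.45 (Cdk1) at 4 weeks. Cyclin A2, from Ccna2, read 8.96, 9.10 and 9.36 in CF, 10.14, 10.02 and 10.03 in GFP- cells at 2 weeks and 8.51, 8.37 and 8.75 at 4 weeks. GFP+ cells gave 8.08, 7.94 and 8.25 and then 7.17, 6.70 and 7.30, and CM 10.35, 10.05 and 9.87. CM and 2-week GFP- cells overlapped at the top, and the GFP+ times did not overlap. Ccna2 was -2.08 ± 0.15 from CF at 4 weeks (SE, limma adjusted p = 9.96e-10).

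Birc5 encodes survivin, part of the chromosomal passenger complex that corrects faulty spindle attachments. Its CF arrays read 9.22, 9.54 and 9.69, its GFP- arrays 10.28, 9.98 and 10.16 and then 8.89, 8.79 and 9.19, and CM 10.13, 9.88 and 9.72. GFP+ arrays gave 8.37, 8.15 and 8.43 and then 7.47, 7.61 and 7.64. All GFP+ arrays were below the rest, and the difference from CF was -1.92 ± 0.13 at 4 weeks (SE, limma adjusted p = 5.83e-10). Cdk1, the kinase that drives mitotic entry, was 0.11 ± 0.14 from CF in GFP- cells at 2 weeks, not called (adjusted p = 0.635). Of the 48 genes 9 were not called there: Ccne2, Cdk1, Cenpf, E2f1, Gins1, Kif11, Prim1, Rrm1 and Tyms.

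Bub1, a kinase of the spindle checkpoint, had the widest range of the 48 genes, 3.97 between group means. It read 8.68, 8.91 and 9.21 in CF, 9.90, 9.84 and 9.68 in GFP- cells at 2 weeks, 7.87, 7.54 and 8.16 at 4 weeks, and 9.56, 9.10 and 9.00 in CM. It read 6.81, 6.71 and 7.07 in GFP+ cells at 2 weeks and 5.78, 5.47 and 6.26 at 4 weeks. No group overlapped another except CM with CF, and the last mean, 5.84, lay under the 6.16 taken as near background. The difference from CF at 4 weeks was therefore at least -3.09 ± 0.19 in size, or at least 8.52-fold lower (SE, limma adjusted p = 9.43e-11). Bub1b, Ttk and Mad2l1, the other checkpoint genes, were lower too, and Mad2l1 the least at -1.08.

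At the kinetochore, Nuf2, which belongs to the NDC80 complex that grips microtubules, read 8.24, 8.37 and 8.74 in CF, 9.76, 9.28 and 9.49 and then 7.81, 7.67 and 8.0 in GFP- cells. It read 6.84, 6.98 and 7.17 and then 6.30, 6.20 and 6.55 in GFP+ cells, and 9.23, 9.05 and 8.88 in CM. GFP- cells at 2 weeks lay above every CM array, and the GFP+ arrays of the 2 times did not overlap. Nuf2 was -2.10 ± 0.15 from CF at 4 weeks (SE, limma adjusted p = 5.26e-10), and Cenpe, a kinetochore motor, was -2.60.

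Cenpa, the histone H3 variant that marks centromeres, went the other way. It read 7.96, 8.38 and 8.44 in CF, 9.43, 9.58 and 9.47 in GFP+ cells at 2 weeks and 9.51, 9.53 and 9.17 at 4 weeks. GFP- cells gave 9.18, 8.85 and 9.07 and then 8.40, 8.64 and 8.01, and CM 9.27, 9.19 and 8.90. GFP+ arrays were above all CF and GFP- arrays except for the third at 4 weeks, which lay just under a 2-week GFP- array, and they overlapped CM at 4 weeks. Cenpa was higher than in CF by 1.23 ± 0.15 at 2 weeks and 1.14 ± 0.15 at 4 weeks (SE, limma adjusted p = 2.41e-06 and 6.15e-06), and was the only one of the 48 to be higher. Against GFP- cells of the same time it was higher by 0.46 ± 0.15 at 2 weeks (adjusted p = 0.0256) and 1.05 ± 0.15 at 4 weeks (adjusted p = 1.56e-05). The 2-week call was lost without GFP- replicate 2 (adjusted p = 0.112) and without GFP+ replicate 2 or 3 (adjusted p = 0.083 and 0.0526). Cenpa had no other single-gene probe set to set beside this one.

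Of 7 spindle genes 6 were lower than in CF in GFP+ cells at 4 weeks. Kif11, the kinesin that pushes spindle poles apart, read 8.81, 9.06 and 9.29 in CF, 9.66, 9.41 and 9.53 and then 8.05, 7.98 and 8.32 in GFP- cells, and 9.89, 9.72 and 9.37 in CM. In GFP+ cells it read 7.10, 7.25 and 7.42 and then 6.11, 6.61 and 7.15. The third array at 4 weeks overlapped the 2-week arrays. Kif11 was -2.43 ± 0.19 from CF at 4 weeks (SE, limma adjusted p = 3.85e-09).

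Prc1 bundles microtubules at the middle of the spindle. It read 8.34, 8.31 and 8.63 in CF, 9.44, 9.01 and 9.36 and then 7.75, 7.55 and 8.03 in GFP- cells, and 9.64, 9.29 and 9.06 in CM. In GFP+ cells it read 7.25, 7.15 and 7.13 and then 6.46, 6.46 and 6.81. No array of GFP+ cells reached those of another group. Prc1 was -1.85 ± 0.15 from CF at 4 weeks (SE, limma adjusted p = 6.26e-09).

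Kif23, a motor of the central spindle and midbody, was the only gene not called against CF in GFP+ cells at 4 weeks. It is named because it was that exception. It read 8.57, 9.02 and 9.19 in CF, 10.11, 9.74 and 9.90 and then 8.52, 8.25 and 8.62 in GFP- cells. GFP+ cells gave 8.64, 8.71 and 8.78 and then 8.38, 8.54 and 8.72, and CM 9.53, 9.19 and 9.30. The GFP+ arrays overlapped CF at both times, with a difference of -0.38 ± 0.14 at 4 weeks (SE, limma adjusted p = 0.0578).

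Of the cytokinesis genes, Anln encodes anillin, a scaffold of the contractile ring. It read 8.64, 8.80 and 8.91 in CF, 9.60, 9.29 and 9.27 and then 8.13, 8.07 and 8.43 in GFP- cells, and 9.70, 9.34 and 9.18 in CM. GFP+ arrays gave 7.61, 7.52 and 7.72 and then 6.67, 6.55 and 6.97. They were below every array of the other groups, and the difference from CF was -2.05 ± 0.14 at 4 weeks (SE, limma adjusted p = 3.62e-10). Ect2 and Racgap1, which switch on the ring's GTPase and anchor it, were lower as well, Racgap1 by -0.93.

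Mki67, whose Ki-67 protein coats mitotic chromosomes and marks cycling cells, read 9.04, 9.46 and 9.60 in CF, 10.44, 10.16 and 10.15 in GFP- cells at 2 weeks and 8.47, 8.52 and 8.75 at 4 weeks. GFP+ cells gave 7.66, 7.50 and 7.75 and then 6.51, 6.54 and 6.97, and CM 9.62, 9.19 and 9.15. CM overlapped CF, and every GFP+ array lay below all others. Mki67 was lower than in CF by -1.73 ± 0.16 at 2 weeks and -2.70 ± 0.16, or 6.48-fold, at 4 weeks (SE, limma adjusted p = 2.73e-08 and 3.32e-11). Top2a, the enzyme that untangles sister chromatids, was -2.94 ± 0.18 at 4 weeks (limma adjusted p = 5.37e-11). A second, dimmer Top2a probe set averaged 6.32 in CF, 5.28 and 5.51 in GFP- cells, 4.19 and 4.06 in GFP+ cells and 4.47 in CM. All but its CF mean lay under 6.16. Unlike the probe set used, it was lower in 2-week GFP- cells and in CM than in CF.

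Replication and mitotic genes differed in how far they moved. In GFP+ cells at 4 weeks 15 of 15 replication genes were lower than in CF, with a median of -0.85, and 28 of 30 mitotic genes, with a median of -1.73. At 2 weeks the counts were 13 of 15 and 27 of 30, and the medians -0.66 and -1.14. The replication median was thus 0.47 above the mitotic median at 2 weeks and 0.87 above it at 4 weeks. Of all genes 15.8% were lower in GFP+ cells at 2 weeks and 15.2% at 4 weeks. In GFP- cells the sign turned between times. At 2 weeks 11 of 15 replication genes were higher, with a median of 0.56, and 27 of 30 mitotic genes, with a median of 0.80, a gap of -0.25. At 4 weeks 7 of 15 and 25 of 30 were lower, with medians of -0.37 and -0.56, a gap of 0.19. Of all genes 13.8% were higher in GFP- cells at 2 weeks and 5.7% lower at 4 weeks. The 4-week calls in GFP- cells depended on single arrays, as given above.

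The arrays showed the spread of this gap. Taken from the CF means, the replication minus mitotic median was 0.84, 1.01 and 0.64 in GFP+ cells at 4 weeks and 0.38, 0.49 and 0.38 at 2 weeks, without overlap. It was -0.33, -0.16 and -0.25 in GFP- cells at 2 weeks and 0.31, 0.27 and -0.04 at 4 weeks, where replicate 3 lay within the CF range of -0.08 to 0.07. In CM it was -0.28, -0.29 and -0.33. By median, mitotic genes thus lay further from CF than replication genes where both were higher and where both were lower. The members were chosen with results known, so no test of the gap was made, and it rests on medians of unequal lists. Without GFP+ replicate 1 the 4-week gap was 0.59. The 4-week gap of GFP- cells was 0.10 without their replicate 1 and 0.28 without replicate 3.

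**Figure D3:**
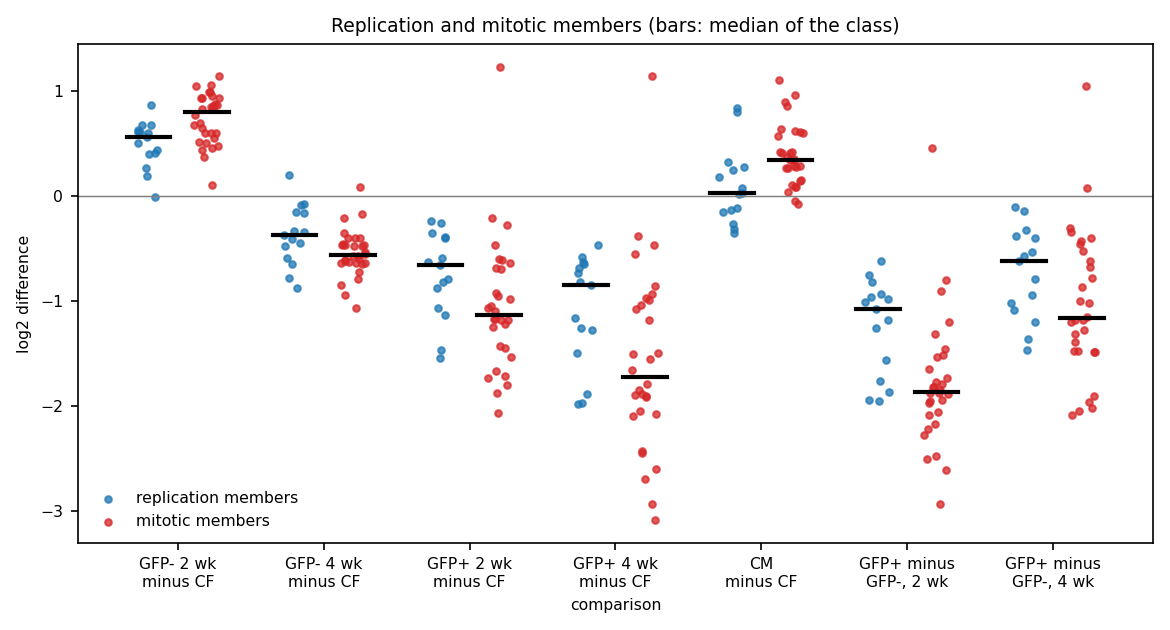
Log2 difference of each replication gene (blue) and mitotic gene (red) in 7 comparisons, with the class median as a black bar. The mitotic bar lies further from 0 than the replication bar in each comparison shown, and the red point far above the rest in the GFP+ comparisons is Cenpa.

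These genes were lower at 4 weeks than at 2 weeks in both kinds of cell. In GFP- cells 45 of 48 were lower at 4 weeks and none higher, with a median of -1.15, against 10.2% and 7.16% of all genes. In GFP+ cells 21 of 48 were lower and none higher, with a median of -0.38, against 7.24% and 4.29%. All 21 were also lower with time in GFP- cells, and the remaining 24 genes lower there were not called in GFP+ cells. By class, 13 of 15 replication and 30 of 30 mitotic genes fell in GFP- cells, and 5 of 15 and 16 of 30 in GFP+ cells. The largest falls in GFP+ cells were those of Top2a, -1.06 ± 0.18 (SE, limma adjusted p = 0.000644), and Ccna2, -1.04 ± 0.15 (adjusted p = 0.000219). The second Top2a probe set averaged 4.19 and then 4.06 in GFP+ cells, both near background. In GFP- cells Bub1 fell by 1.95, Rrm2 by 1.75 and Nuf2 by 1.68. In GFP+ cells the Prc1 call was lost without 4-week replicate 1 or 2 (adjusted p = 0.0586 and 0.0691), and the Kif11 call without 2-week replicate 2 or 3 or 4-week replicate 1 or 2 (adjusted p up to 0.211). Kif11 was also not called under quantile normalization, cyclic loess, array weights or a fit of the groups compared alone (adjusted p = 0.0585, 0.0551, 0.0574 and 0.11), with a difference of -0.40 under array weights against -0.63.

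The difference between the time courses was tested gene by gene. The fall was steeper in GFP- cells for 45 of 48 genes, and the difference was called for 20, all in that direction, against 1.86% of all genes in that direction and 2.08% in the other. They were 3 replication genes (Mcm3, Tyms and Cdc45), Ccne1 and 16 mitotic genes. Kif23 had the largest, with -1.45 in GFP- cells against -0.16 in GFP+ cells, a difference of 1.29 ± 0.20 (SE, limma adjusted p = 0.000983). Foxm1, the transcription factor of the G2 programme, fell by 1.48 in GFP- cells and differed by -0.37, not called, in GFP+ cells, a difference of 1.11 ± 0.21 (adjusted p = 0.00457). The GFP+ cells started lower: at 2 weeks the Foxm1 means were 7.46 in GFP+ and 9.20 in GFP- cells. With array weights 43 of the 48 were called, while the share of all genes called rose to 11.2% in that direction and 9.8% in the other. Cdk1 and Pcna lay on the other side, with differences of -0.27 and -0.09, neither called (adjusted p = 0.572 and 0.794).

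**Figure D4:**
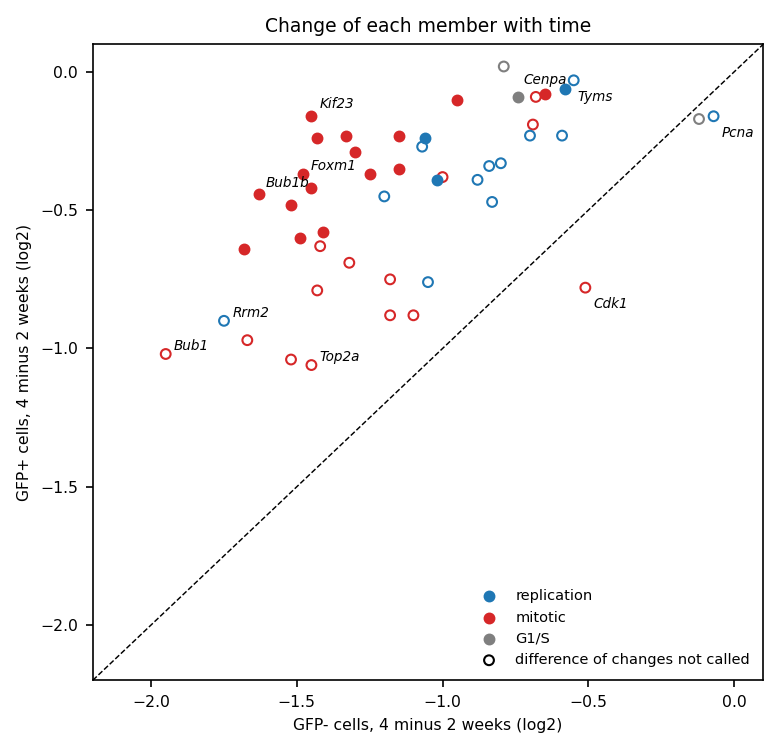
Change from 2 to 4 weeks (log2) of each gene in GFP- cells (horizontal) and GFP+ cells (vertical); filled points had a called difference between the changes, and the dashed line marks equal change. Of the 48 points 45 lie above the line, with Cdk1 and Pcna among those below it.

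Neonatal cardiomyocytes were not the low group. Against CF 18 of 48 genes were higher and 3 lower, with a median of 0.28, where 19.6% of all genes were higher and 21.5% lower. Under quantile and cyclic loess normalization the splits were 25 higher to 1 lower and 21 to 1, where 22.8% and 20.8% of all genes were higher and 21% and 21.7% lower. The 6 endothelial markers were higher in CM than in CF as well, by a median of 2.45. Mitotic genes made up most of the rise, 15 of 30 with none lower, and replication genes were split, 3 higher and 3 lower of 15. Ccna2 was higher by 0.96 ± 0.15 (SE, limma adjusted p = 2.62e-05), Prc1 by 0.90 ± 0.15 (adjusted p = 5.93e-05), and Prim1 and Rrm2 by 0.84 ± 0.25 and 0.80 ± 0.18 (adjusted p = 0.00973 and 0.000919). Cenpa was higher by 0.86 and Nuf2 by 0.61, while Mki67 was -0.05 ± 0.16 from CF (adjusted p = 0.847).

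The 3 genes lower in CM were replication genes: Pcna by -0.35 ± 0.09, Mcm6 by -0.31 ± 0.12 and Tyms by -0.27 ± 0.09 (SE, limma adjusted p = 0.00239, 0.0345 and 0.0228). CM and CF arrays overlapped for Mcm6 and Tyms, and under quantile normalization neither was called (adjusted p = 0.243 and 0.32). Replicate 1 of CM was the highest of its group for each gene given by array here, and without it the count fell from 21 to 13 and the Prim1 call was lost (adjusted p = 0.054).

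GFP+ cells lay below CM in nearly all of these genes. At 2 weeks 45 of 48 were lower and none higher, with a median of -1.12, against 19.4% and 22.7% of all genes. At 4 weeks 46 were lower and none higher, with a median of -1.41, against 16.1% and 19%. Only E2f1 and Cenpa were not called at 4 weeks. Ccna2 was 8.22-fold and Anln 6.38-fold lower in GFP+ cells at 4 weeks than in CM, and Bub1 at least 10.4-fold. Cenpa was 0.28 ± 0.15 from CM, not called (SE, limma adjusted p = 0.19).

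Other genes of the same processes, 160 measured and none on the list of 49, went the same way with smaller medians. In GFP+ cells at 4 weeks 115 of 160 were lower than in CF and 3 higher, with a median of -0.65, against 15.2% and 14.3% of all genes. In GFP- cells 101 were higher and 1 lower at 2 weeks (median 0.44), and none was higher and 55 were lower at 4 weeks (median -0.30), where 13.8% of all genes were higher at 2 weeks and 5.7% lower at 4 weeks. Of 29 kinetochore genes 23 were lower in GFP+ cells at 4 weeks, led by the scaffold gene Knl1, at least -2.94 with its GFP+ mean near background. Of 16 condensin and cohesin genes 13 were lower, led by the condensin subunit Ncapg at -2.84. Of 25 spindle and cytokinesis genes 21 were lower, with the kinesin Kif20b at -2.06, and of 14 mitotic entry and exit genes 9, with Pbk at least -2.16.

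Origin and fork genes were lower in 29 of 40, by up to -1.79 in Wdhd1 and -1.77 in Gmnn, which encodes the licensing inhibitor geminin, while Pold2, a polymerase delta subunit, was higher by 0.60. Of 14 genes of replication-coupled repair 12 were lower, and Brip1 was at -1.54. Of 22 G1/S control genes 8 were lower and 2 higher, against 15.2% and 14.3% of all genes. Rbl1, a retinoblastoma relative, was lower by -1.89 and E2f8, an E2F repressor, by -1.01. Between them lay Lin9, at least -1.71 with its GFP+ mean near background. In CM 10 of the 22 were lower than in CF, where 21.5% of all genes were, with cyclin D1 (Ccnd1) at -1.52. Another 4 were higher, where 19.6% of all genes were, led by E2f6 at 1.03.

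**Figure D5:**
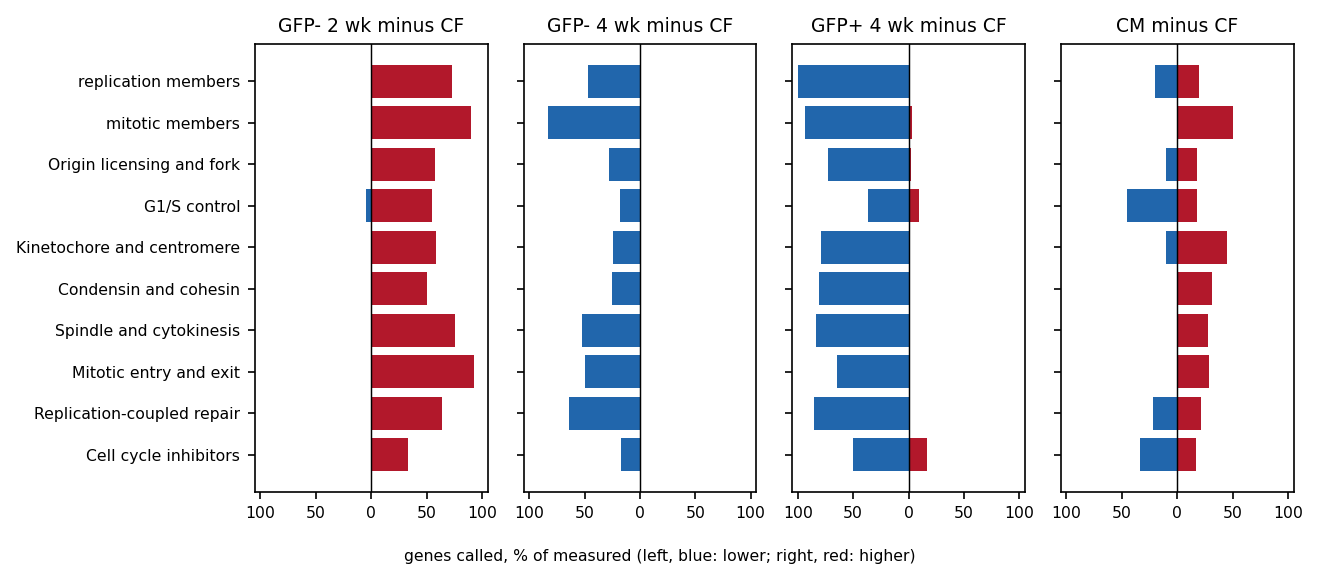
Share of measured genes called lower (blue, left) and higher (red, right) in 4 comparisons against CF, for the replication and mitotic genes of the list and for 8 lists of other cell cycle genes. Most bars point right in GFP- cells at 2 weeks and left in GFP- and GFP+ cells at 4 weeks, with a short blue G1/S bar at 2 weeks and short red bars for 4 lists in GFP+ cells. The G1/S control and inhibitor lists have the shortest blue bars in GFP+ cells.

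Of 6 measured cell cycle inhibitors, 1 was higher and 3 were lower than in CF in GFP+ cells at 4 weeks, against 14.3% and 15.2% of all genes. Cdkn1c, which encodes p57, was higher by 0.26 ± 0.10 (SE, limma adjusted p = 0.0449). Cdkn2c was lower by -1.51 ± 0.11 (adjusted p = 6.15e-10) and Cdkn1b, which encodes p27, by -0.60 ± 0.10 (adjusted p = 5.08e-05). At 2 weeks 3 of the 6 were higher and 3 lower, against 17.4% and 15.8% of all genes. Cdkn2c and Cdkn1b were lower by -0.86 ± 0.11 and -0.81 ± 0.10 (SE, limma adjusted p = 1.88e-06 and 1.28e-06). Cdkn2a and Cdkn2b, which encode inhibitors of the cyclin D kinases, were higher by 0.64 ± 0.13 and 0.59 ± 0.13 (adjusted p = 0.000754 and 0.00163). At 4 weeks neither Cdkn2a nor Cdkn2b was called. Cdkn1a was not analysed here.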

How the data were processed

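RNA was measured on 18 arrays, 3 in each of 6 groups; depth does not apply to arrays, whose number sets how precise a value is. Per the submitters' processing notes the authors used RMA, whose version is not given in the sources used here, and the deposited values are log2 signals per probe set. Of 28682 probe sets 21755 named 1 gene, 1592 several and 5335 none; only the first were used, and for 997 genes with several the brightest by mean was taken, giving 19912 genes. Array medians ran from 7.316 to 7.445. Symbols came from the platform annotation.

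Groups were taken from the labels. All 18 arrays entered 1 limma 3.58.1 fit (R 4.3.3; lmFit, then eBayes) whose single term was group, and 12 comparisons were tested two-sided; calls were at an adjusted p under 0.05. The code was tested on simulated data. Group means under 6.16 counted as near background (each array's 25th percentile was taken, and the lowest used), and differences resting on them as bounds. The members and lists were chosen with earlier results of these data known, so lists are given by counts and medians without a test. Values by array are given for the gene with the widest range in each role (the widest pair in roles of 6 or more genes), for genes called against the majority, and for Mki67 and Pcna; of other lists, the genes with the largest called differences without overlap. Kif23 was added after its values were seen. Probe sets naming no gene or several were left out. Other normalizations, array weights, other probe set rules, a dim-gene filter, a 2-fold minimum, a replicate block and leaving out each array were tried.

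Replicate numbers were not used to pair the arrays in the main fit. Same-numbered arrays of different groups correlated in their deviations from group means at -0.30 to 0.45, and 15 of 45 pairs exceeded 0.1. For arrays with other numbers the range was -0.51 to 0.41, and 21 of 90 pairs exceeded 0.1. All groups were pooled in this check, so it cannot show whether particular groups were paired.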

Additional observations from a re-analysis of the deposited data

Results flagged for a closer look

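The change from 2 to 4 weeks differed between GFP+ and GFP- cells for 20 genes by a test of the difference itself (limma interaction term, adjusted p under 0.05). Each value is the log2 time change of GFP+ cells minus that of GFP- cells, and each was positive, the fall being steeper in GFP- cells. In the spindle the values were 1.29 for Kif23, 1.10 for Kif2c, 0.89 for Prc1 and 0.88 for Nusap1. In cytokinesis they were 1.19 for Racgap1 and 1.03 for Ect2. The checkpoint genes Bub1b, Mad2l1 and Ttk had 1.19, 0.85 and 0.80, and the kinetochore genes Ndc80 and Nuf2 both had 1.04. Among mitotic regulators the difference was 1.11 for Foxm1, 1.01 for Aurka, 0.92 for Aurkb, 0.83 for Plk1 and 0.57 for Cdc20. It was 0.82 for Cdc45, 0.66 for Ccne1, 0.63 for Mcm3 and 0.52 for Tyms. Of these genes only Mcm3, Nuf2, Prc1 and Tyms were followed singly under the alternatives. The Prc1 and Tyms calls were lost when single arrays were left out. Prc1 was also not called under quantile normalization (limma adjusted p = 0.0515).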

How the results depend on the processing

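Precision was limited by 3 arrays a group and by background signal for Bub1 in GFP+ cells at 4 weeks. No called gene or gap that was checked changed sign under the alternatives run. Single genes were checked only where given by array above, Kif23 excepted. Of the alternative counts of called genes 173 stayed within 1.5 times the reported count, 12 were lower and 1 was higher. Requiring a 2-fold difference as well lowered the count from 21 to 1 (CM against CF), 43 to 23 and 47 to 30 (GFP+ against CF at 2 and 4 weeks), 39 to 3 and 34 to 1 (GFP- against CF), 42 to 23 (GFP+ against GFP- at 4 weeks), 21 to 3 (GFP+ with time), 45 to 29 (2-week GFP+ against CM) and 20 to 9 (difference of time changes). Array weights raised the last from 20 to 43; its cause was not tested.

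Leaving out each array gave 13 to 21 for CM against CF, 16 to 34 for 4-week GFP- cells against CF, and 16 to 22 for the difference of time changes. The replication minus mitotic median ranged from 0.39 to 0.51 and 0.59 to 0.99 (GFP+ against CF at 2 and 4 weeks), 0.72 to 0.90 (GFP+ against GFP- at 2 weeks), 0.69 to 0.82 and 0.83 to 1.08 (GFP+ against CM). Counting the S-phase entry regulators as mitotic moved it to 0.69 (4-week GFP+ against CF), -0.15 (2-week GFP- against CF) and 0.62 (2-week GFP+ against CM), and averaging probe sets moved the last to 0.68.

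Against CF the replicate block called 22 genes for CM, and 43 and 48 for GFP+ cells at 2 and 4 weeks. For GFP- cells at 2 and 4 weeks it called 39 and 32 against CF. It called 43 for GFP+ against GFP- at 4 weeks and 22 for the difference of time changes. Shares of all genes called under the block, the 2-fold minimum or each left-out array are not given beside these counts. The counts therefore cannot show whether calls over all genes shifted as well. The check of the replicate numbers cannot show whether particular groups were paired.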
